A study of Mus musculus with 4 samples.

Results

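The 50 genes described here encode the proteins that license replication origins and run the replication fork. They were chosen by name, with earlier results of these data known. All 50 were found among the 50600 genes of the deposited count tables, each as a protein-coding gene. The series holds 4 RNA sequencing libraries, biological replicates 1 to 4, of primary T cells from mice of strain C57BL/6NJ. The labels give 1 group, so no treatment, genotype or time was compared. P-values for single genes concern only the spread between these 4 samples, set against that of genes of like abundance. Those for pairs of genes concern the difference within each sample. The labels call the assay total RNA-seq and link a library protocol named for polyadenylated RNA and a CD4+ T-cell differentiation protocol. The sample names in the file headers carry the words Th0 and activated and a time of 72 h. Age is given as unknown, sex as not collected, and all 4 samples carry 1 donor identifier.

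DNA replication is prepared in G1, when the origin recognition complex (ORC) and CDC6 load the ring-shaped MCM2-7 helicase on DNA together with CDT1. The kinase CDC7-DBF4 and the cyclin-dependent kinases then let CDC45 and the GINS complex join the ring and turn it into the active helicase. DNA polymerases, the sliding clamp PCNA and nucleosome assembly factors follow it at the fork. Resting T cells are outside the cell cycle, and activated T cells divide quickly. Many genes of this machinery are known targets of E2F transcription factors, whose sites often lie close to the start of transcription.

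The libraries held between 49613182 and 94222415 assigned read pairs, a ratio of 1.9, and a replication gene drew between 838 and 53447 of them in a library. All 6 T-cell marker genes were detected, with a summed level of 5210 to 5399 TPM (a transcript abundance unit) over the libraries. TPM here is the count divided by the gene's counted exon length and scaled to the same total in each library. Of the CD8 markers, Cd8a averaged 0.190 TPM and Cd8b1 15.8 TPM. Summed levels, with 0 counts taken as 0 TPM, were at most 0.0661 TPM for 5 myeloid markers and 0.226 TPM for 3 erythroid markers. They were at most 5.45 TPM for 4 B-cell markers, 5.17 TPM for 3 natural killer markers and 1.07 TPM for 3 stromal markers. Of these 4 B-cell and 3 natural killer markers, only Igkc and Eomes reached 1 TPM in every library, and S100a8 (myeloid) and Hbb-bs (erythroid) had no counts in any of the 4, so their levels may be as high as 0.310 and 0.281 TPM. Replicates 1 and 2 had 331.9 and 150.1 TPM of Xist, the RNA made from the inactive X chromosome, and replicates 3 and 4 had 0.877 and 0.392 TPM. Replicates 1 and 2 had 0.0344 and 0.0834 TPM of the Y-linked Ddx3y, and replicates 3 and 4 had 49.0 and 45.8 TPM, although all 4 carry the same donor identifier. Pola1, the X-linked member, did not follow that division, with 58.8, 49.9, 58.9 and 51.8 TPM in replicates 1 to 4.

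A sequence shared by part of the set stood in its promoters. RefSeq promoter windows on GRCm38.p6, from 250 bases before to 50 bases after a start of transcription, were matched for 41 of the 50 genes, in 50 windows. In 43 of the 50 windows, a stretch just after the start occurs in a GENCODE transcript of the gene. The Timeless window (128237816 to 128238115) lies inside the counted gene, which begins at 128232065. Gmnn, Pole, Gins1, Gins2, Gins4, Mcm4, Rfc2, Tipin and Prim2 had no entry in the table used. Each window was searched on both strands for the E2F words TTTCCCGC, TTTCGCGC, TTTGCCGC and TTTGGCGC. The windows of Mcm6 and Mcm5 are printed whole because in each of them 2 words overlap on opposite strands. Capitals mark the E2F words, and sequences run 5′ to 3′ on the gene's strand.

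Mcm6 promoter (chr1:128359656-128359955, minus strand): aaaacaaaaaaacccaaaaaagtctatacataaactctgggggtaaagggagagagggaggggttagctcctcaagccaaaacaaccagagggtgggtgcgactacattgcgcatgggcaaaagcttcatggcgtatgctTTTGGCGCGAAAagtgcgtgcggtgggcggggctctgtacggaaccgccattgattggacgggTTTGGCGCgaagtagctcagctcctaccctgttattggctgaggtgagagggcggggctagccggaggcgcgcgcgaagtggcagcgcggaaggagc

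Mcm5 promoter (chr8:75109259-75109558, plus strand): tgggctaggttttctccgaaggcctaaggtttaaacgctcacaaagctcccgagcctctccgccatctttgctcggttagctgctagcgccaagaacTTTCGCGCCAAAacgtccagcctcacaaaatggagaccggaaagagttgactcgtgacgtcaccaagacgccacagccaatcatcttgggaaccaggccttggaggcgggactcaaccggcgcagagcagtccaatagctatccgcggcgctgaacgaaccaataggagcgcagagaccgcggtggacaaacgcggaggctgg

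In Mcm6 the overlapping words begin 110 and 106 bases before the start, at -110 and -106, and a further word begins at -47. In Mcm5 the overlapping words begin at -153 and -149. The next windows of 30 bases, with each whole E2F word in capitals, show the same core in genes that load, unwind, synthesize and seal DNA.

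Orc1 (chr4:108579416-108579445, plus strand): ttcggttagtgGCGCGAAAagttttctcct

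Cdc6 (chr11:98908002-98908031, plus strand): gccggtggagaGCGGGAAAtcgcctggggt

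Cdt1 (chr8:122568035-122568064, plus strand): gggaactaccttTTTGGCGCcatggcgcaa

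Mcm3 (chr1:20820263-20820292, minus strand): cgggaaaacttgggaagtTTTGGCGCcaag

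Mcm7 (chr5:138171849-138171878, minus strand): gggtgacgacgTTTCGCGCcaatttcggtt

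Pola1 (chrX:93632275-93632304, minus strand): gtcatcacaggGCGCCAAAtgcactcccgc

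Pole2 (chr12:69228162-69228191, minus strand): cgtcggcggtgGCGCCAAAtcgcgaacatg

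Rfc3 (chr5:151651200-151651229, minus strand): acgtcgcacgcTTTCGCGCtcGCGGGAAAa

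Lig1 (chr7:13278841-13278870, plus strand): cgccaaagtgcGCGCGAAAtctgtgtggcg

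Clspn (chr4:126556990-126557019, plus strand): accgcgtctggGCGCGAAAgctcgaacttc

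An E2F word stood in 17 of the 50 replication gene windows (34%), against 460 of 10976 windows of detected protein-coding genes (4.19%) and 744 of 32851 windows of all genes in the table (2.26%). The 17 windows belong to 17 of the 41 matched genes and hold 23 matches, of which 16, in 14 genes, begin at -100 or later. Positions are counted from the RefSeq start. The counted Cdc6 gene begins at 98907801, before the stretch 98908002 to 98908031 that holds its word. Likewise the counted Lig1 gene begins at 13277283, before its printed stretch at 13278841 to 13278870. On the minus strand, the counted Mcm7 gene begins at 138172422, before its printed stretch at 138171849 to 138171878. The printed Mcm5 window ends at 75109558, and the counted Mcm5 gene begins after it, at 75109569. Of the ring subunits with a window, Mcm3, Mcm5, Mcm6 and Mcm7 held the word and Mcm2 did not. Both loaders with a window, Cdc6 and Cdt1, held it, as did 3 of 4 polymerase delta and epsilon genes, Pold1, Pold3 and Pole2. None of the windows of Cdc7 and Dbf4, of the 3 replication protein A genes or of the 2 chromatin assembly genes held it. No match says only that these letters are not in that window.

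Other promoter words differed less between the sets. The CCAAT box (CCAAT) stood in 54% of the replication gene windows, against 38.1% of the detected genes' windows. The GC box (GGGCGG) stood in 72% of the replication gene windows and 64.1% of those of detected genes. The E-box CACGTG stood in 16% of the replication gene windows and 10.2% of those of detected genes. The cell cycle element CHR (TTCGAA or TTTGAA) stood in 20% of the replication gene windows and 13.8% of those of detected genes, and the TATA box (TATAAA) in 6% of the replication gene windows and 6.61% of those of detected genes. Matches of different words may overlap. The median GC content was 62.3% in the replication gene windows and 61% in those of detected genes. The median of the mean levels was 64.9 TPM (27.5 to 514.9 TPM) in the 17 genes with an E2F word and 102.3 TPM (12.2 to 492.5 TPM) in the 24 genes without. A word match is a description of sequence and does not show that a factor was bound.

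**Figure D1:**
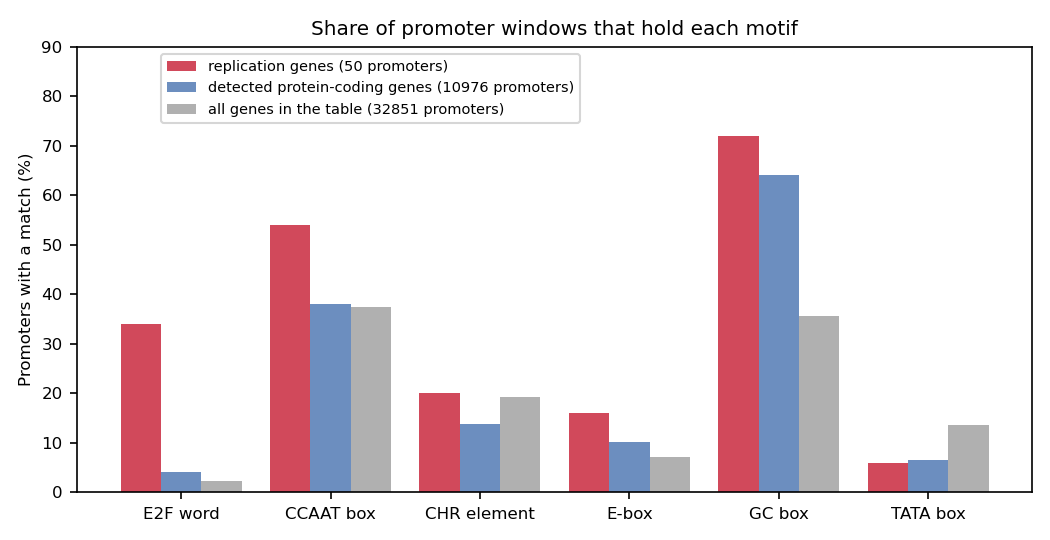
Share of promoter windows, in percent, that hold each sequence word on either strand, in replication genes, detected protein-coding genes and all genes of the RefSeq table. The E2F word stood in 34% of the replication gene windows against 4.19% of those of detected genes, while the TATA box stood in 6% of the replication gene windows and 6.61% of those of detected genes.

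All 50 replication genes were detected, at 1 TPM or more in every library, against 49.4% of all 21764 protein-coding genes. Of the 50, 36 (72.0%) reached 50 TPM in every library, against 17.9% of protein-coding genes. Both shares only describe the list, which was chosen with earlier results of these data known. The median of their mean levels was 89.3 TPM, and the median of the 10754 detected protein-coding genes was 34.8 TPM. Only 4 of the 50, Orc4, Mcm9, Gins3 and Chaf1b, lay at or below that value. The levels spanned 10.7 TPM for Mcm9 in replicate 2 to 548.6 TPM for Mcm3 in replicate 3. In bulk RNA, fewer cells of a type and less RNA per cell cannot be told apart.

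**Figure D2:**
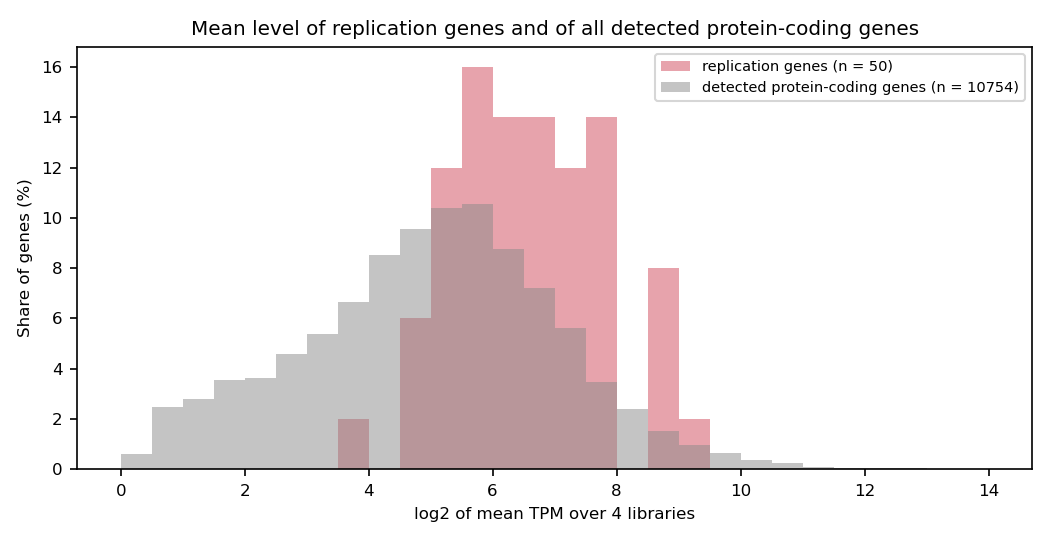
Mean level over the 4 libraries, as log2 of TPM on the x axis, for the 50 replication genes and the 10754 detected protein-coding genes, with the share of genes in percent on the y axis. The replication genes have a median of 89.3 TPM against 34.8 TPM, and 4 of the 50 lie at or below 34.8 TPM.

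The MCM2-7 ring genes were the most abundant group, with a median of 377.9 TPM over its 6 members. Mcm3 (chromosome 1, 20802968 to 20820312, minus strand, mm10) had 494.5, 503.8, 548.6 and 512.7 TPM in replicates 1 to 4, and ranked 257th of the 21764 protein-coding genes by mean level. Mcm5 stood at 435.5, 438.6, 457.9 and 442.6 TPM, Mcm6 at 400.1, 376.6, 403.3 and 376.4 TPM, and Mcm4 at 377.2, 351.8, 392.2 and 345.2 TPM. By joined exon lengths these 4 subunits lay above Mcm7 and Mcm2 in every library. The proteins form a ring with 1 copy of each. Mcm7 stood at 219.5, 234.1, 235.0 and 223.6 TPM, and Mcm2 at 129.8, 126.4, 134.7 and 126.2 TPM. The order Mcm3, Mcm5, Mcm6, Mcm4, Mcm7, Mcm2 was found in each of the 4 libraries, and the highest mean was 3.98 times the lowest.

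That spread depends in part on gene length. The deposited length joins every exon of every transcript, and for Mcm2 it was 6956 bases, against 3371 bases in the principal transcript. With principal transcript lengths Mcm3 averaged 440.3 ± 22.1 TPM (SD, n = 4) and Mcm2 184.3 TPM, a ratio of 2.39, and Mcm6 changed places with Mcm5. Mcm4 then averaged 253.3 ± 15.98 TPM and Mcm7 235.4 ± 8.42 TPM (SD, n = 4), and in replicate 2 they stood at 242.2 and 240.9 TPM. Across the 50 genes the joined length was 1.0 to 3.63 times the principal length, with a median of 1.4, and 20 genes exceeded 1.5. Mcm7 also holds Mir25 and Mir93 on its own strand, over 3.89% of its exon length. A stretch of 2157 bases of Mcm7 matches Gm5487 at 97.7% identity, and the option set in the headers does not count reads that map to several places.

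MCM8 and MCM9, relatives of the ring that act in homologous recombination, were far lower. Mcm8 stood at 36.1, 32.5, 36.9 and 34.8 TPM. Mcm9 (chromosome 10, 53536315 to 53630439, minus strand) stood at 12.7, 10.7, 13.6 and 11.9 TPM, the lowest of the 50. Mcm8 exceeded Mcm9 in all 4 libraries, by 1.45 ± 0.06 in log2(TPM + 1) (SD, n = 4, exact two-sided sign-flip p = 0.125), the smallest p that 16 sign patterns can give. No pair of 4 libraries can pass 0.05 in this test, so each pair is described by how many libraries share a sign.

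Upstream of the ring, the ORC genes, which mark the origins, spanned 5.16-fold. Orc6 stood at 125.9, 122.1, 111.3 and 113.6 TPM, and Orc4 at 24.7, 20.7, 23.9 and 22.4 TPM. Orc1, the ATPase whose level changes through the cell cycle in mammals, stood at 55.3, 52.6, 56.4 and 52.1 TPM, and Orc2 at 96.8, 91.6, 97.1 and 91.1 TPM. The Orc1 minus Orc2 difference was -0.79 ± 0.01 in log2(TPM + 1), with the same sign in all 4 libraries. Orc3 and Orc5 averaged 50.3 ± 2.88 and 37.3 ± 2.61 TPM (SD, n = 4). Under principal transcript lengths Orc6 and Orc4 remained the highest and the lowest, with a ratio of 5.39, while Orc3 and Orc5 moved above Orc2.

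The helicase loaders and their inhibitor lay close together. Gmnn, encoding geminin, which binds CDT1 and blocks loading again after origins fire, stood at 106.8, 104.5, 94.1 and 100 TPM. Cdt1, which brings the ring to the origin, stood at 85.7, 95.03, 105.1 and 104.5 TPM. Gmnn was the higher of this pair in replicates 1 and 2 and the lower in replicates 3 and 4. The mean difference was 0.06 ± 0.21 in log2(TPM + 1) (exact sign-flip p = 0.75 over 4 libraries), and was -0.03 without replicate 1. Xist and Ddx3y divide the replicates in the same way, and a link was not tested. With principal transcript lengths Gmnn was the higher in replicate 1 only. Cdc6, the loading ATPase, stood at 64.1, 65.7, 66.9 and 62.9 TPM, below Cdt1 in all 4 libraries, with a mean Cdc6 minus Cdt1 difference of -0.58 ± 0.14. Per principal transcript Cdc6 averaged 91.6 TPM and was above Cdt1 in 1 of the 4 libraries.

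The order of the firing kinase genes turned with gene length. Dbf4, the activating subunit, stood at 40.3, 33.0, 37.5 and 36.7 TPM. Cdc7, the catalytic subunit, stood at 52.5, 43.4, 49.7 and 43.4 TPM. Dbf4 lay below Cdc7 in all 4 libraries, with a mean difference of -0.35 ± 0.07 in log2(TPM + 1). Dbf4 has a joined exon length of 8728 bases and a principal transcript of 2402 bases. With principal transcript lengths it averaged 92.5 TPM, against 43.7 TPM for Cdc7, and the difference was 1.07 ± 0.07 with Dbf4 higher in all 4 libraries. The direction within this pair changed with the gene length used.

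Of the genes that turn the loaded ring into the active helicase, Cdc45 was the highest. Mcm10, which helps start unwinding, stood at 68.3, 62.3, 67.4 and 64.7 TPM, and Cdc45 at 180.5, 172.5, 184.3 and 177.9 TPM. Mcm10 was lower in all 4 libraries, with a difference of -1.43 ± 0.03 in log2(TPM + 1), and of -0.85 with principal transcript lengths. Cdc45 lay above Mcm2 in all 4 libraries by 0.47 ± 0.02. With principal transcript lengths it lay below Mcm2 in all 4, and the difference was -0.50. The GINS complex holds 1 copy of each of its 4 subunits, whose RNA levels differed. Gins4 stood at 128.2, 138.7, 114.9 and 129.4 TPM, and Gins3 at 24.7, 28.2, 29.9 and 27.0 TPM, with Gins2 at 50.9 ± 4.43 and Gins1 at 40.4 ± 2.07 TPM (SD, n = 4). Exons of Gins2 overlap the opposite strand gene Gse1 over 67.3% of their length, and counting was by strand, per the file headers.

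**Figure D3:**
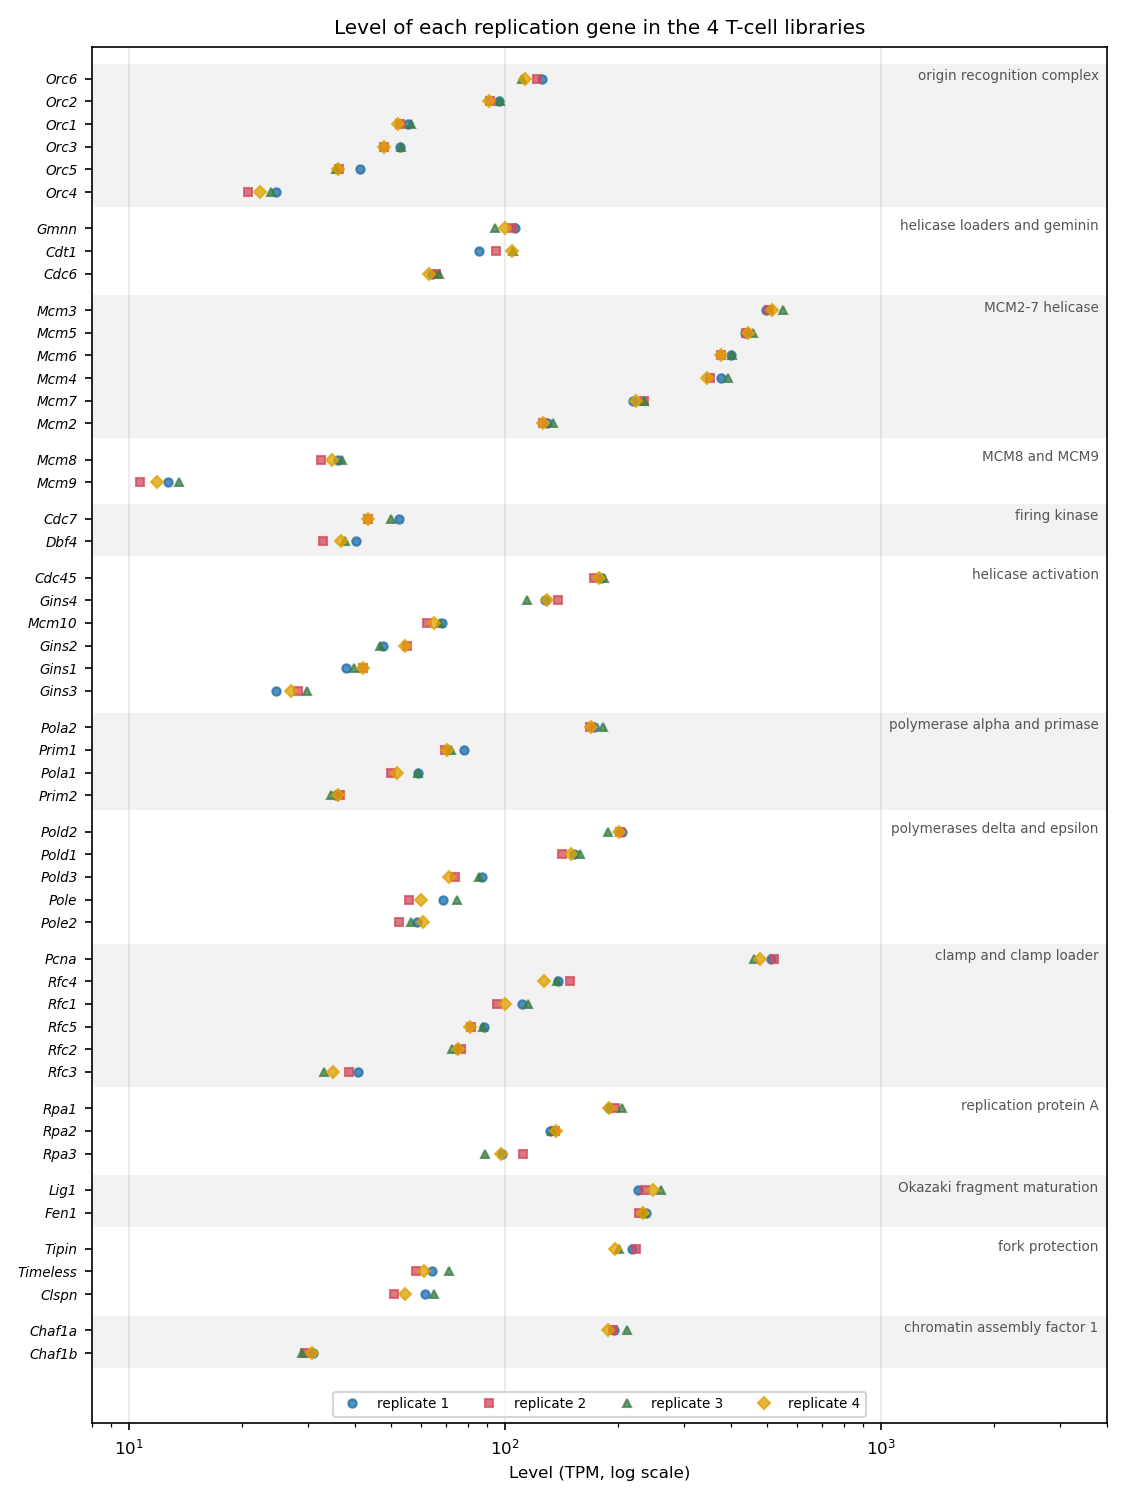
Level of each of the 50 genes in TPM by joined exon length, on a log axis, with 1 point per library, grouped by role and ordered by mean level within a role. Mcm3, Pcna and Mcm5 lie farthest to the right, Mcm9 farthest to the left, and the 4 libraries of a gene lie close together.

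Polymerase alpha with primase lays down the RNA-DNA primers. Pola1, its catalytic subunit, averaged 54.9 ± 4.66 TPM (SD, n = 4), and Pola2, its accessory subunit, stood at 173.2, 168.7, 182.6 and 170.1 TPM. Pola1 was lower in all 4 libraries, with a difference of -1.65 ± 0.09 in log2(TPM + 1). Prim1, the catalytic primase subunit, stood at 77.8, 69.3, 71.8 and 70.1 TPM, and Prim2, the large subunit, at 35.7, 36.4, 34.6 and 36.0 TPM. Prim1 exceeded Prim2 by 1.00 ± 0.09 in all 4 libraries. Both directions held with principal transcript lengths, at -1.18 and 0.71.

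Polymerase epsilon copies the leading strand and polymerase delta the lagging strand. Pold2, a regulatory subunit of delta, was the highest of these 5 genes, at 205.2, 202.3, 188.3 and 201.5 TPM. Pole, the catalytic subunit gene of epsilon, stood at 68.7, 55.5, 74.6 and 60.1 TPM. Pold1, that of delta, stood at 153.3, 142.1, 158.9 and 150.1 TPM. Pole was lower in all 4 libraries, with a difference of -1.22 ± 0.13 in log2(TPM + 1). Pole2 stood at 58.6, 52.4, 56.3 and 60.7 TPM and overlapped Pole, so their order was not the same in every library. Pold3 averaged 79.3 ± 8.04 TPM (SD, n = 4).

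Pcna, the sliding clamp that holds the polymerases on DNA, was second to Mcm3 among the 50 by mean level with joined exon lengths. On chromosome 2 (132249162 to 132253314, minus strand), Pcna reached 511.5, 519.5, 460.7 and 478.1 TPM, above Mcm3 in replicates 1 and 2 and below it in replicates 3 and 4. That division of the replicates is also the one of Xist and Ddx3y, and a link was not tested. With the principal transcript as length, Pcna averaged 537.7 ± 28.4 TPM and Mcm3 440.3 ± 22.1 TPM (SD, n = 4), and Pcna was the higher in all 4 libraries. Its pseudogene Pcna-ps2, 99.2% identical over 781 bases, had a mean of 6.30 TPM. The clamp loader genes lay well below the clamp. Rfc4 averaged 138.3 ± 8.99 TPM and Rfc5 84.4 ± 3.88 TPM (SD, n = 4). Rfc1, the large loader subunit, stood at 111.2, 95.4, 115.2 and 100.1 TPM, and Rfc2 at 74.9, 76.6, 72.5 and 75.2 TPM. Rfc3 was the lowest, at 40.6, 38.6, 33.2 and 34.9 TPM. By principal transcript length Rfc3 averaged 69.7 TPM and Rfc2 65.2 TPM, so Rfc2 became the lowest.

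Replication protein A coats the single-stranded DNA that the helicase exposes. Rpa2 stood at 132.2, 136.1, 133.6 and 136.8 TPM, the steadiest of the 50 with a coefficient of variation (CV) of 1.59%. Rpa3, the small subunit, stood at 98.5, 111.7, 88.8 and 97.8 TPM, and Rpa1, the large subunit, at 189.2, 196.4, 204.9 and 189.3 TPM. Both lay below Rpa1 in all 4 libraries, with differences of -0.53 ± 0.06 for Rpa2 and -0.97 ± 0.16 for Rpa3 in log2(TPM + 1). By principal transcript length Rpa3 remained below Rpa1 in all 4 (difference -0.35), while Rpa2 was above it in 3 of 4 (mean difference 0.05).

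Fen1, the flap nuclease that trims Okazaki fragments, stood at 238.0, 227.9, 234.8 and 233.9 TPM, and Lig1, the ligase that seals them, at 226.0, 235.9, 261.0 and 247.9 TPM. Fen1 was higher in replicate 1 and lower in replicates 2 to 4, with a mean difference of -0.05 ± 0.095 in log2(TPM + 1) (exact sign-flip p = 0.375 over 4 libraries). By principal transcript length Fen1 was lower in all 4 libraries (difference -0.45). Exons of Fen1 overlap opposite strand genes over 84.2% of their length.

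TIMELESS, TIPIN and claspin hold the fork together and relay the checkpoint signal. Tipin stood at 217.6, 223.6, 200.9 and 196.6 TPM, and its binding partner Timeless at 64.0, 58.0, 71.1 and 60.9 TPM. Tipin was higher in all 4 libraries, by 1.71 ± 0.18 in log2(TPM + 1), and by 1.28 with principal transcript lengths. Clspn stood at 61.5, 50.7, 64.8 and 54.2 TPM, lower than Timeless in each library.

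Chromatin assembly factor 1 deposits new histones H3 and H4 behind the fork. Chaf1b stood at 30.9, 29.4, 28.9 and 30.7 TPM, and Chaf1a at 195.0, 194.2, 211.9 and 188.8 TPM. In TPM this was the widest mean difference of the 16 pairs under both lengths, -2.68 ± 0.11 in log2(TPM + 1), and -1.33 with principal transcript lengths, with the same sign in all 4 libraries both times. In total 14 of the 16 pairs had 1 sign in 4 of 4 libraries, and 13 did with principal transcript lengths. The mean sign turned in 4 pairs: Gmnn with Cdt1, Dbf4 with Cdc7, Cdc45 with Mcm2 and Rpa2 with Rpa1.

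**Figure D4:**
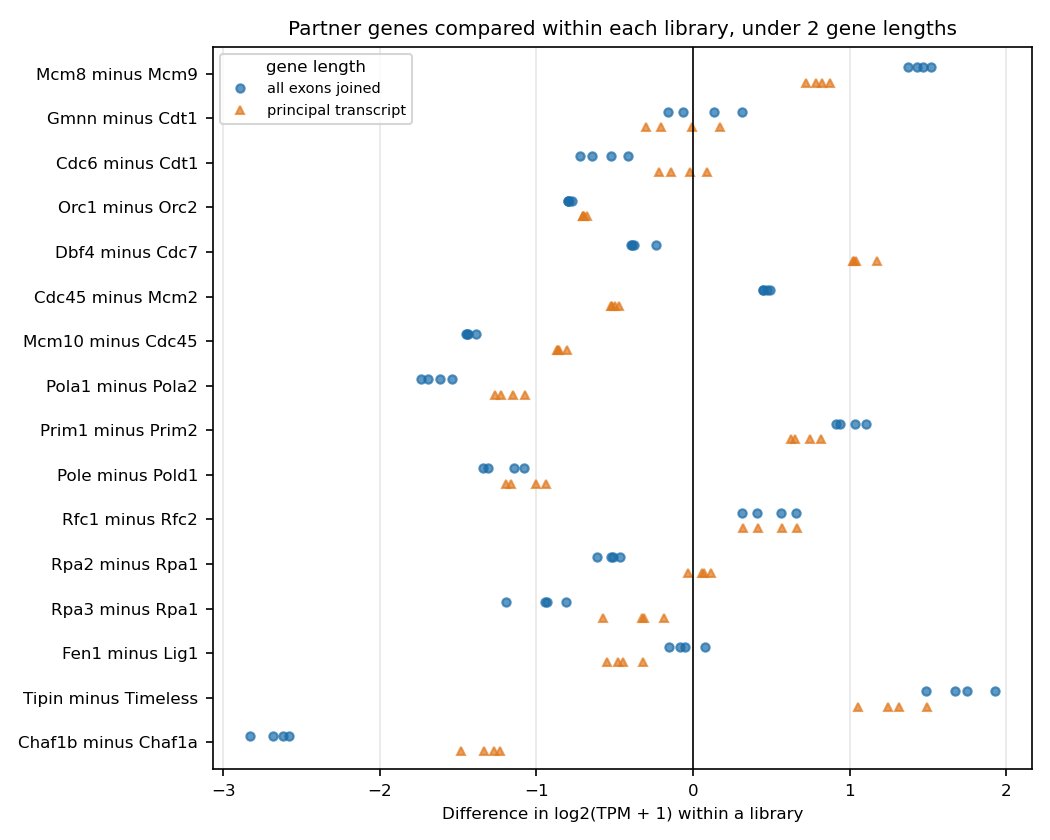
Difference between partner genes in log2(TPM + 1), the first gene minus the second, with 1 point per library, under joined exon lengths (circles) and principal transcript lengths (triangles). Chaf1b minus Chaf1a lies lowest under joined exon lengths, at -2.68 on average, and Dbf4 minus Cdc7 moves across 0.

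Between libraries the replication genes had a median CV of 5.59%, against 7.94% over detected protein-coding genes. Of the 50, 46 had a CV under 10%, against 65.3% of detected genes. The detected genes were not matched for level, with a median of 34.8 TPM against 89.3 TPM for the replication genes. The highest library of a gene exceeded its lowest by 1.035 times for Rpa2 to 1.343 times for Pole. Summed over the 50 genes, the level was 6674, 6561, 6755 and 6485 TPM in replicates 1 to 4, and the genes took 0.732%, 0.744%, 0.735% and 0.728% of the counts. The 4 genes with a CV of 10% or more were Pole (13.2%), Clspn (11.2%), Mcm9 (10.2%) and Pold3 (10.2%), all lowest in replicate 2 or 4.

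None of the 50 was called variable between libraries by an edgeR intercept-only deviance test with Benjamini-Hochberg adjustment, against 94 of 13681 genes tested (0.687%). The test asks whether a gene spreads more than genes of like abundance in these same libraries. Their common biological coefficient of variation was 11.11%. A gene that was not called may therefore still vary by the spread usual in these libraries. At an unadjusted p under 0.05 there were 0 of 50, against 7.01% of all genes tested, and DESeq2 marked 0 of 50 as dispersion outliers. The smallest p was that of Gins2 (unadjusted p = 0.0697, adjusted p = 0.805 in edgeR), which stood at 47.4, 55.1, 46.7 and 54.4 TPM. Without replicates 1, 2 and 4 in turn, 46, 38 and 46 genes of the whole table were called, and none of the 50 in any of these fits.

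Library deviations went with gene length. The 17 replication genes of 5000 bases or more had median deviations from their own means of 0.06, -0.07, 0.06 and -0.04 in log2(TPM + 1) in replicates 1 to 4, and the 4208 detected genes of that length had 0.05, -0.11, 0.10 and -0.04. The 12 replication genes under 2500 bases had 0.03, 0.05, -0.07 and -0.01, against -0.0041, 0.04, -0.05 and 0.02 over 2441 detected genes. Long genes were thus lowest in replicate 2 and short genes lowest in replicate 3, in the set and in the background alike. Of the 50, 25 were highest in replicate 3 and 2 in replicate 4. The matching shares of all detected genes were not computed. Their median deviations were 0.02, -0.05, 0.05 and -0.02 in replicates 1 to 4, so they too were highest in replicate 3. The part of length in any single gene's spread was not tested.

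**Figure D5:**
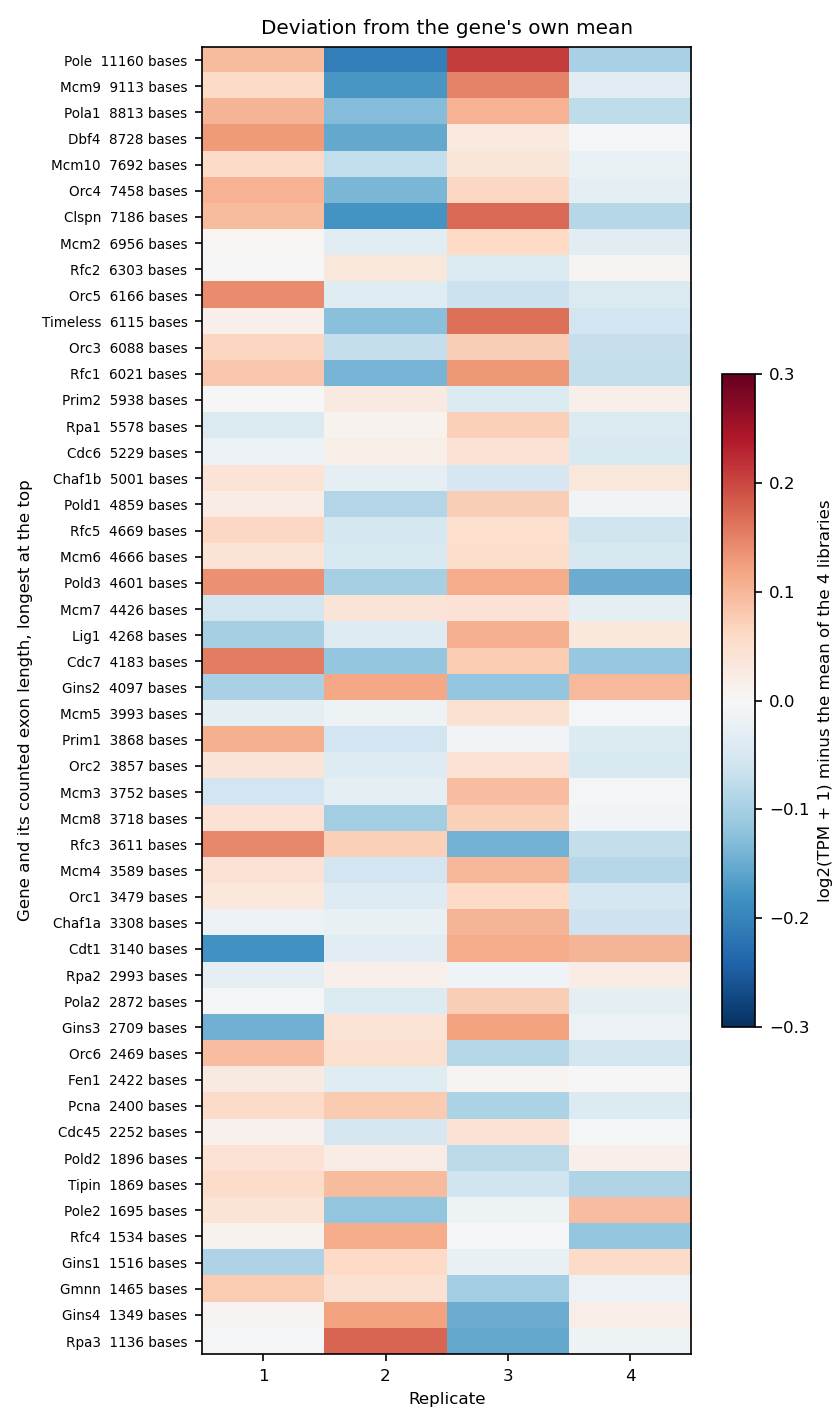
Deviation of each gene from its own mean over the 4 libraries, in log2(TPM + 1), with genes ordered by counted exon length from the longest at the top and libraries across. Long genes such as Pole are mostly low in replicate 2 and high in replicate 3, and short genes such as Rpa3 mostly the other way.

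The positions of the genes were described too, without a test. Of the 50 genes, 14 (28.0%) have a start within 1000 bases of that of a gene on the opposite strand, against 17.4% of detected and 10.6% of all protein-coding genes. Mcm4 averaged 366.6 ± 21.95 TPM and Prkdc, the DNA-dependent protein kinase gene 466 bases away, 21.7 ± 4.27 TPM (SD, n = 4). Orc1 averaged 54.1 ± 2.11 TPM and Prpf38a, a splicing factor gene 87 bases away, 59.6 ± 1.43 TPM. The 50 genes lie on 16 chromosomes. Chromosome 5 holds 9 of them (18.0%, against 5.77% of protein-coding genes), Rfc1, Rfc2, Rfc3 and Rfc5 included. Chromosome 8 holds 6 (12.0%, against 4.76%): Gins2, Gins3, Gins4, Mcm5, Cdt1 and Orc6.

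A list of 40 other replication genes was chosen with earlier results of these data known. All 40 were detected, against 49.4% of all protein-coding genes. Of the 40, 25 reached 50 TPM in every library, against 17.9% of all protein-coding genes. Their median mean level was 73.7 TPM and their median CV 7.31%. Ddb1, a subunit of the ubiquitin ligase that degrades CDT1, was the highest, at 843.6, 803.7, 952.4 and 850.8 TPM. It was followed by Ssrp1, a subunit of the histone chaperone FACT, with 549.7 TPM, and by Chtf8, a subunit of an alternative clamp loader, with 348.9 TPM. The lowest were Dscc1 (6.495 TPM), of the same alternative loader, Skp2 (13.2 TPM), a ubiquitin ligase subunit, and Primpol (15.0 TPM), a primase-polymerase. None of the 40 was called variable by edgeR, against 0.687% of all genes tested. The smallest p was that of Rnaseh2c (unadjusted p = 0.0168, adjusted p = 0.435 in edgeR). It was the only gene of the 40 with an unadjusted p under 0.05, against 7.01% of all genes tested.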

How the data were processed

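Each library has its own table of raw counts, which the authors deposited without normalization. Per the file headers, featureCounts 1.4.6-p4 counted read pairs over the joined exons of each gene in GENCODE mouse release 13. The headers also show that both ends had to align and that the reverse strand was counted, and the labels name mm10. The alignment's name holds the word star2, and the version is not given in the sources used here. Symbols, gene types and principal transcripts came from GENCODE mouse release 21, and promoters from RefSeq (GRCm38.p6).

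TPM was computed here from counts and the file's joined exon lengths, and a gene with 0 counts has 0 TPM. A floor of 3 counts gave the upper limit stated for genes at 0. Variability was tested in edgeR 4.0.16 under R 4.3.3 (TMM factors, filterByExpr, trended dispersion, intercept-only deviance on 3 degrees of freedom, threshold 0.05), with DESeq2 1.42.0 as an alternative, after a check on simulated counts. Pairs were compared on log2(TPM + 1) within libraries, with a two-sided exact test that flips the signs of the 4 differences. Adjusted p-values of the pairs start at 0.143. Near copies were matched with BLAST 2.17.0 at 95% identity over 200 bases.

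Principal transcript length, the bases of that transcript inside the counted exons, was added after seeing the data, as were the promoter words and the length classes. The members and lists were chosen with earlier results of these data known. Values were given for both genes of each pair, the highest and lowest of each role and any gene called variable or standing apart. Other members have means or ranges, and the 3 highest and 3 lowest other replication genes are named. The floor covers counting error only.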

Additional observations from a re-analysis of the deposited data

Results flagged for a closer look

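Among the 50 genes, Orc5 was the only gene with a library far from the other 3 in Dixon's gap test: it stood at 41.2 TPM in replicate 1, against 36.3, 35.6 and 36.1 TPM in replicates 2 to 4. Chance marks about 1 in 20 groups, and 1 of 50 was marked here. In edgeR Orc5 was not called variable (adjusted p = 1.00).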

How the results depend on the processing

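The number of variable genes in the whole table, 94, was 617 with a common dispersion and 43 as DESeq2 dispersion outliers, and 38 to 87 with each library left out in turn; none of the 50 genes was among them in the edgeR and DESeq2 runs. At a threshold of 100 TPM, 20 of the 50 genes passed in every library. The share of all protein-coding genes at 100 TPM was not computed. The median level, 89.3 TPM, was 94.4 TPM over protein-coding genes, 25.95 as RPKM with TMM factors, 92.2 TPM with principal transcript lengths, and 88.2 to 90.4 TPM with each library left out. With CPM and no length, the mean difference turned to -1.02 for Gmnn minus Cdt1, 0.15 for Cdc6 minus Cdt1, 0.69 for Dbf4 minus Cdc7, -1.15 for Cdc45 minus Mcm2 and 0.33 for Mcm10 minus Cdc45. In that setting 3 more pairs lost their shared sign: Tipin minus Timeless (0.015, exact sign-flip p = 0.75), Pola1 minus Pola2 (-0.048, p = 0.375) and Pole minus Pold1 (-0.032, p = 0.625). Rpa3 minus Rpa1 kept its sign and moved the farthest, to -3.23. With principal transcript lengths it turned to -0.083 for Gmnn minus Cdt1, 1.07 for Dbf4 minus Cdc7, -0.50 for Cdc45 minus Mcm2 and 0.054 for Rpa2 minus Rpa1. With each library left out, Gmnn minus Cdt1 ran from -0.029 (without replicate 1) to 0.129 (without replicate 3). The principal transcript setting changes the length by which counts are divided. The CPM setting leaves length out, and it also scales libraries with TMM factors rather than to the same TPM total. Samples could not be paired, because the labels give 1 group, and the pairs compared were of genes within a library. Depth limits the lowest genes most: the smallest count of a replication gene in a library was 838.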
